A study of Homo sapiens with 14 samples.

Results

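Processed pseudogenes were described in RNA from MDA-MB-231 cells, a triple-negative breast cancer line. The 10620 genes were taken by annotation alone, as every gene that GENCODE release 44 types as processed_pseudogene (10112 genes) or transcribed_processed_pseudogene (508 genes), of 60876 genes with a transcript in the quantified set. A processed pseudogene arises when a messenger RNA is reverse transcribed and the DNA copy is inserted elsewhere in the genome. Such a copy has no introns, usually has no promoter of its own, and resembles the spliced transcript of the gene it came from, here called its parent. Genes that are strongly expressed in the germ line, above all those of the ribosomal proteins, have left many copies, and a short sequenced fragment can match a copy and its parent equally well. The comparisons asked how many reads were assigned to the copies in each group, and whether those reads followed the reads of the parent.

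The study treated the cells with 5 µM RBI2, a small molecule under study as an inhibitor of ribosome biogenesis, or with 5 µM CX-5461, an inhibitor of RNA polymerase I used as the positive control. Cells were taken at the labelled 10, 30 or 120 min. The control cells had no treatment according to the design text and the methods, but the study's results speak of a DMSO control, so it stays unsettled here whether a comparison with the control includes an effect of the solvent. Each of the 7 groups held 2 libraries made from poly(A)-selected RNA with a stranded kit. All groups share the same line, and whether the replicates came from separate cultures is not given, so the p-values measure the spread between these libraries, which may be technical.

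The libraries held 14112299 to 24849354 estimated reads (median 16305236). The line's markers VIM, CD44 and CAV1 were high in all 14 libraries (lowest levels 2084, 472 and 204 TPM) and ESR1, PGR and CDH1 were at or near 0 (highest 0.205, 0 and 0.285 TPM). SPARC was low (5.06 to 12.003 TPM) and EPCAM was above 0 (11.4 to 22.4 TPM), while the leukocyte and endothelial markers PTPRC, CD3E, PECAM1 and CDH5 did not pass 0.0904 TPM and the fibroblast markers COL1A1, COL1A2 and PDGFRB did not pass 2.86 TPM. Control replicate 2 stood apart from the other libraries, with 20.4% of its reads on mitochondrial genes against 8.05% to 11.2% elsewhere. It held the highest value of 65 of the 270 pseudogenes that entered the tests (24.1%, against 23.0% of all genes tested) and the lowest value of 64 (23.7%, against 25.6%).

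The sequences of a few copies show what the reads had to tell apart. Each pair below gives 120 bases of the copy, 5′ to 3′ on the strand of the transcript, and the matching stretch of the parent's coding sequence, from the GENCODE transcripts on hg38. Capitals mark the positions at which copy and parent differ. EEF1A1P5 is shown because, of the tested copies, it spanned the widest range of CPM (reads scaled to a common library size) between libraries. It lies at chr9:133019486-133020874 on the plus strand with no other annotated gene over it, and the window is chr9:133019719-133019838. Over all 1389 aligned positions it differs from EEF1A1, the elongation factor that brings aminoacyl-tRNA to the ribosome, at 4.
EEF1A1P5: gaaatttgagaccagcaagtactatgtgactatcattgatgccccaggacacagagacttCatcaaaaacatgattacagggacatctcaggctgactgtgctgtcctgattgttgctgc
EEF1A1: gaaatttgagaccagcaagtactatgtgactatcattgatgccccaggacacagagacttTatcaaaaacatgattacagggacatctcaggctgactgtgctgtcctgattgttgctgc

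RPLP0P9 (window chr5:166382373-166382492, plus strand) and ENSG00000218426 (window chr6:153282329-153282448, minus strand) are shown because their reads came and went between replicates. The first differs from RPLP0, a protein of the ribosomal stalk, at 1 of 295 positions, and the second differs from RPL27A, a protein of the large subunit, at 6 of 447.
RPLP0P9: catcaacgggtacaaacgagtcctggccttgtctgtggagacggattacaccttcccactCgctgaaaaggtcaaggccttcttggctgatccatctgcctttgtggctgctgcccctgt
RPLP0: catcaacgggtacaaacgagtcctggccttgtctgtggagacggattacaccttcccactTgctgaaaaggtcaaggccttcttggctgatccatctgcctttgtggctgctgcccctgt
ENSG00000218426: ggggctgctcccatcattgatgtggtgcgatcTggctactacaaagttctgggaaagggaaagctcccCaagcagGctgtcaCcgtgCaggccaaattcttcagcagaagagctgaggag
RPL27A: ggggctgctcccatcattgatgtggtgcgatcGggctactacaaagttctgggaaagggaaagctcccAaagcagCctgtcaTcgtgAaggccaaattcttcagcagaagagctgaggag

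RPL3P4 (window chr14:98973163-98973282, minus strand) is shown for the largest lower bound on a fold change among the calls reported below. It differs from RPL3, a protein of the large subunit, at 2 of 423 positions.
RPL3P4: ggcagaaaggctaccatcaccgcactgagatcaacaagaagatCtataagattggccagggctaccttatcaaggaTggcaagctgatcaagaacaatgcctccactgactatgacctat
RPL3: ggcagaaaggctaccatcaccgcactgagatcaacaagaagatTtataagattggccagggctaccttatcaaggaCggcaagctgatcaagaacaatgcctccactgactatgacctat

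RPSAP53 (window chr13:67266939-67267058, minus strand) is shown as a copy whose level followed that of its parent. It differs from RPSA, a protein of the small subunit, at 64 of 878 aligned positions and at 13 of the 120 shown.
RPSAP53: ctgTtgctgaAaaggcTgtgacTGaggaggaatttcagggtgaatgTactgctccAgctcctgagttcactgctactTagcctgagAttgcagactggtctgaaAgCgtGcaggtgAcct
RPSA: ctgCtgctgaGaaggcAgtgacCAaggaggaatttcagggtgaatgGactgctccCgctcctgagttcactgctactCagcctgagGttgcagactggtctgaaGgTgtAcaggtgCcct

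Most processed pseudogenes had no reads. Of the 10620 genes, 6581 had none in any library and 4039 had at least 1. The filter on low counts, which asks for about 10 reads in 2 libraries, passed 270, so 3769 genes with reads were left out of the tests, the highest of them at a mean of 17.8 CPM. Transcribed processed pseudogenes passed more often (70 of 508, 13.8%) than the others (200 of 10112, 1.98%). The 270 were mostly low, with a median of 1.18 CPM, 129 under 1 CPM, 56 at 5 CPM or more and 11 at 100 CPM or more. A pseudogene can pass this filter through the group in which it is high, so counts over the 270 describe those genes and not the class. A count of 0 in a library allows up to 3 reads, which is 0.121 to 0.213 CPM before scaling, for counting error only.

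Together the class took a small and narrow share of each library, with a median of 0.401% and a range from 0.336% to 0.5003% of the estimated reads. The control libraries held 0.401% ± 0.0115 (SD, n = 2). RBI2 libraries held 0.394% ± 0.0232 at 10 min, 0.338% ± 0.00334 at 30 min and 0.430% ± 0.0987 at 120 min (n = 2 each). CX-5461 libraries held 0.422% ± 0.0625, 0.401% ± 0.0265 and 0.471% ± 0.0312 at the same labels (n = 2 each). Both RBI2 libraries at 30 min, at 0.336% and 0.341%, lay below all other libraries, and both CX-5461 libraries at 120 min, at 0.449% and 0.493%, lay above both controls, at 0.393% and 0.410%.

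Much of that variation came from 1 gene. EEF1A1P5 took between 0.282% and 35.0% of the reads of the class. It stood at 91.5 and 13.7 CPM in the control, 177 and 65.0 CPM in RBI2 at 10 min, 17.6 and 32.4 CPM at 30 min, and 72.2 and 1020 CPM at 120 min. In CX-5461 it stood at 100 and 828 CPM at 10 min, 643 and 222 CPM at 30 min, and 1035 and 1807 CPM at 120 min. All 6 CX-5461 libraries thus lay above both controls, but the replicates of a group lay far apart and none of the 9 comparisons passed the test (edgeR adjusted p of 0.0986 or more). Its parent EEF1A1 stayed between 7684 and 10938 CPM. Without EEF1A1P5 the share was 0.396% ± 0.0172 in the control, 0.382% ± 0.0152, 0.336% ± 0.00224 and 0.377% ± 0.0333 in RBI2, and 0.376% ± 0.0109, 0.357% ± 0.00348 and 0.333% ± 0.0184 in CX-5461 at 10, 30 and 120 min. Leaving it out moved CX-5461 at 120 min from the highest of the group means to the lowest, below both controls.

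**Figure D1:**
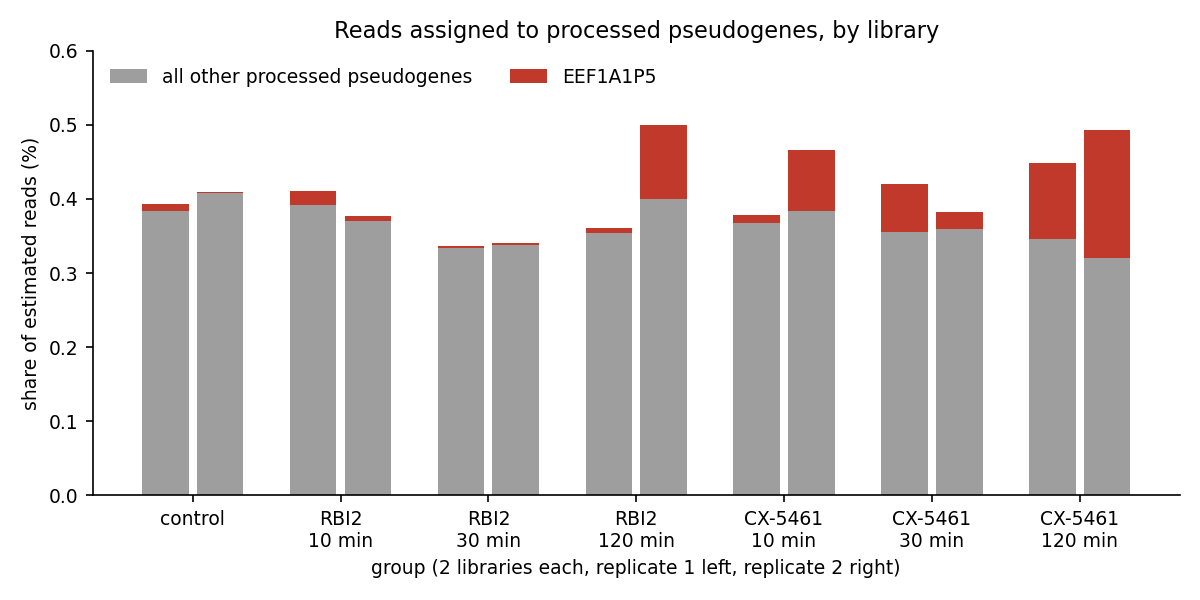
Share of each library's estimated reads assigned to processed pseudogenes (vertical axis, %), with the part of EEF1A1P5 in red and all others in grey. Bars are single libraries in pairs by group. The totals run from 0.336% to 0.5003%, and the red part reaches 35.0% of the total in CX-5461 at 120 min, replicate 2.

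The copies that took most reads came from genes of translation and protein handling. The 10 with the highest mean CPM, among them ENSG00000237550, EEF1A1P5, RPL21P16, PPIAP22, RPL36AP37, RPL22P1, RPS23P8, UBE2SP2 and ENSG00000196656, held 39.1% of the reads of the class in control replicate 2 and up to 73.3% in other libraries. Of the 10, 7 resemble ribosomal protein genes, PPIAP22 resembles PPIA, the peptidyl-prolyl isomerase cyclophilin A, and UBE2SP2 resembles UBE2S, an E2 ubiquitin-conjugating enzyme of the anaphase-promoting complex. By the family of a parent named by symbol, copies of cytosolic ribosomal proteins were 1594 genes, with 32.4% of the reads of the class. Of these, 954 had a read and 44 were tested. This share leaves out ENSG00000237550 (142300 reads) and ENSG00000196656 (24762 reads), which have no parent by symbol. Both resemble ribosomal protein genes by sequence, so copies of these genes took more than 32.4%. Copies of translation factors took 13.2% (16 of 146 tested), of chaperones and peptidyl-prolyl isomerases 6.98% (3 of 170), and of proteasome and ubiquitin genes 6.30% (5 of 109). Most of the translation factor share was EEF1A1P5, which alone took 0.282% to 35.0% of class reads by library. High mobility group and chromatin genes (5 of 190 tested) took 2.48%, cytoskeletal genes (4 of 218) 0.934%, glycolytic genes (3 of 103) 0.928%, nuclear-encoded mitochondrial respiration (2 of 225) 0.372% and RNA-binding proteins (7 of 192) 0.258%. None of the copies of iron storage genes (39) or 14-3-3 genes (24) was tested. Genes with another parent (99 of 3324) took 8.43%, and genes with no parent by symbol (82 of 4286) took 27.6%.

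Of the copies with a described RNA that are given here, 6 had at most 3 reads. PTTG3P had 3 reads in all 14 libraries together and HMGA1P6 had 1. SUMO1P3, HMGA1P7, INTS6P1 and UBE2CP3 had none. FTH1P3 (0.0539 to 0.708 CPM) and GAPDHP1 (0 to 0.278 CPM) had reads but were not tested. NANOGP8 is typed protein_coding and BRAFP1 unprocessed_pseudogene in this release, so neither belongs to the class.

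The tested copies had less sequence of their own than the rest of the class. Each transcript was cut into overlapping words of 31 bases, and a word found in no other quantified gene was counted as private. The median gene of the class had 91.6% private words, the median tested gene 40.9% and the median untested gene 92.2%. Private words exceeded 75% in 26.3% of the tested and in 72.8% of the untested genes. No private word at all was found in 37 tested genes, RPL21P16 and RPL36AP37 among them, of 311 such genes in the class. Genes that share an exon with another gene on the same strand were tested more often (46 of 281, 16.4%) than genes in an intron of a gene on the same strand (2.70%), opposite another gene (1.97%) or with no other gene over them (2.09%). Whether a fragment came from the copy, the parent or the host gene was not tested.

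Replicates of a group often differed in whether a copy was read at all. For 66 of the 270 tested copies (24.4%), at least 1 group had 0 reads in a replicate and 10 or more in the other, against 397 of 15426 genes (2.57%). In the treated groups alone this held for 56 copies (20.7%) and 344 genes (2.23%), and in the control for 33 copies (12.2%) and 144 genes (0.933%). RPLP0P9 had 0 and 146 CPM in the control, 0 and 54.7 CPM in RBI2 at 120 min, and 54.0 and 42.2 CPM in RBI2 at 10 min. RPS27P4, a copy of the small-subunit gene RPS27, had 0 and 157 CPM in the control, 0 and 23.3 CPM in RBI2 at 120 min, and at most 0.533 CPM in the other 10 libraries. ENSG00000218426 had 0 and 481 CPM in the control and at most 2.10 CPM in the other 12 libraries. These 3 genes were described after their values were seen. In control replicate 2 the parents RPLP0, RPS27 and RPL27A were at 1366, 376 and 473 CPM, the lowest of the 14 libraries for each.

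The share of copies with an empty and a read replicate fell with the share of private words. It was 31 of 60 copies (51.7%) with up to 10% private words, 17 of 40 (42.5%) from 10% to 25%, 13 of 58 (22.4%) from 25% to 50%, 3 of 41 (7.32%) from 50% to 75% and 2 of 71 (2.82%) above 75%. The last group had the lowest median level, 0.744 CPM, and the first the highest, 2.65 CPM. On the log2(CPM + 0.5) scale, replicates also differed more than 2-fold for 75 copies in the control (27.8%, against 5.26% of all genes). In the treated groups this held for 7.78% to 13.3% of the copies (1.26% to 1.72% of all genes). On the same scale the median gap between replicates was 0.29 for the copies and 0.13 for all genes tested.

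**Figure D2:**
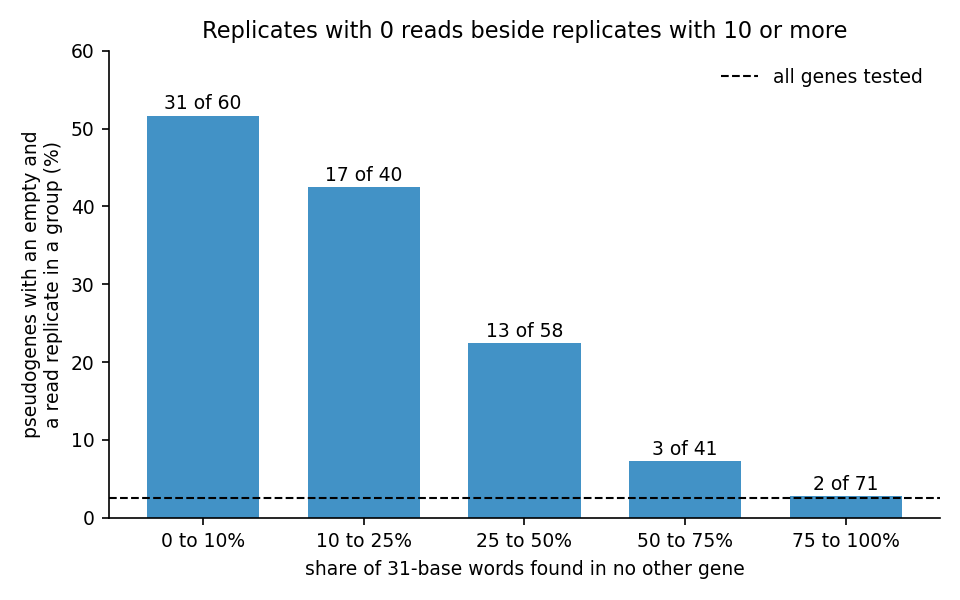
Share of tested processed pseudogenes with 0 reads in a replicate and 10 or more in the other replicate of at least 1 group (vertical axis, %), by the share of their 31-base words found in no other gene (horizontal axis). Bars carry the counts, and the dashed line is the share among all genes tested, 2.57%. The share falls from 51.7% to 2.82%.

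Reads of the copies did not in general follow those of the parent. A protein-coding parent could be named by symbol for 6334 genes of the class and for 188 of the tested ones, and 185 of these pairs had a tested parent (148 different parents). The best match of the copy to its parent was 96.2% identical in the median (quartiles 91.7% and 98.9%), with 42 above 99% and 13 identical. Per length, the copy stood at 1.59% of its parent's TPM in the median, below 1% in 80 pairs and above the parent in 10. Over the 14 libraries the Pearson correlation of log2 CPM between copy and parent had a median of 0.04 (quartiles -0.23 and 0.30). It was positive in 99 of 185 pairs, above 0.5 in 24 and below -0.5 in 17, and without control replicate 2 the median was 0.14. For copies of at least 5 CPM the median was negative, as given in the last section. Among all genes tested, ranked by their correlation with the copy, the parent came at 45.2% from the top in the median, within the top 5% for 17 copies (9.19%) and within the bottom 5% for 15 (8.11%). The libraries of a group share their treatment and pairs can share a parent, so these values are a description. The parents moved little, with a median size of the log2 fold change of 0.07 to 0.18 by comparison, and many copies rest on few reads. A correlation near 0 therefore cannot tell a copy that does not follow its parent from one with too few reads to show it.

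Among copies of at least 5 CPM with a parent named by symbol, the 5 that followed the parent most closely were RPSAP53, TMEM167AP2, EIF3FP3, NAMPTP1 and RCN1P2. RPSAP53 gave r = 0.95 with RPSA over the 14 libraries (Spearman rho = 0.60), 0.80 without control replicate 2 and 0.80 without the 2 libraries farthest from the median. It stood at 15.7 and 3.35 CPM in the control and at 10.2 to 22.7 CPM in the treated libraries, with RPSA at 1525 and 928 CPM in the control and 1269 to 1795 CPM elsewhere. TMEM167AP2, a copy of a Golgi membrane protein gene, gave r = 0.80 (0.60 without the 2 farthest libraries), and EIF3FP3, of a subunit of initiation factor 3, gave 0.78 (0.36). NAMPTP1, of the NAD salvage enzyme gene NAMPT, gave 0.67 (0.67), and RCN1P2, of an endoplasmic reticulum calcium-binding protein gene, gave 0.62 (0.39). Within groups r was 0.97 for RPSAP53 and 0.76 for EIF3FP3. It was only 0.34 for RCN1P2, 0.19 for TMEM167AP2 and 0.10 for NAMPTP1. MTND4P12, a nuclear copy of the mitochondrial gene MT-ND4 that has no parent by symbol and was picked after its values were seen, stood at 49.4 CPM in control replicate 2 and at 7.72 to 16.5 CPM elsewhere, beside 44424 and 12665 to 17397 CPM for MT-ND4.

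In the same set, the 5 copies that ran most against the parent were RPS23P8, TMSB4XP6, LDHAP4, RPL36AP37 and RPL22P1. RPS23P8 stood at 156 and 298 CPM in the control, 100 and 237 CPM in RBI2 at 120 min and 90.3 and 96.1 CPM in CX-5461 at 120 min, while RPS23, a protein gene of the small subunit, stood at 661 and 539, 677 and 483, and 702 and 628 CPM in the same libraries. In each of these pairs of replicates the library with more RPS23P8 had less RPS23. The same held in the remaining groups except RBI2 at 10 min. There RPS23P8 stood at 205 and 188 CPM and RPS23 at 599 and 595 CPM, both higher in replicate 1. Over all 14 libraries r was -0.77 (rho = -0.77). RPL36AP37 gave r = -0.66 with RPL36A (rho = -0.71) and stood at 183 and 160 CPM in the control against 154 and 280 CPM for RPL36A. TMSB4XP6, of the actin-binding thymosin beta 4 gene, gave -0.74 (-0.25 without the 2 farthest libraries). LDHAP4 of the lactate dehydrogenase gene LDHA gave -0.69 and RPL22P1 gave -0.60, and without control replicate 2 these became 0.67 and -0.44. Without the 2 farthest libraries they became 0.74 and 0.59, and rho was 0.41 and -0.0022, so for both the negative value rested on those libraries. ENSG00000218426, whose parent RPL27A was found by sequence and not by symbol, gave -0.78, and 0.41 without control replicate 2.

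The sum of copy and parent varied less than the parent alone in some pairs and more in others. A sum is steadier by construction where copy and parent run against each other, so the values describe these pairs only. RPL36AP37 and RPL36A together had a coefficient of variation of 12.4% over the 14 libraries against 33.5% for RPL36A, RPS23P8 and RPS23 7.10% against 13.3%, RPL22P1 and RPL22 5.23% against 9.73%, and ENSG00000218426 and RPL27A 7.85% against 16.2%. In control replicate 1 RPL27A stood at 1019 CPM and its copy at 0, and in replicate 2 they stood at 473 and 481 CPM, so that the sums were 1019 and 954 CPM. For EEF1A1P5 and EEF1A1 the sum varied by 8.34% and EEF1A1 alone by 8.76%. The sum varied more than the parent for ENSG00000196656 and RPS26 (11.6% against 11.1%), EIF3FP3 and EIF3F (9.40% against 8.28%) and RPSAP53 and RPSA (13.3% against 13.2%).

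**Figure D3:**
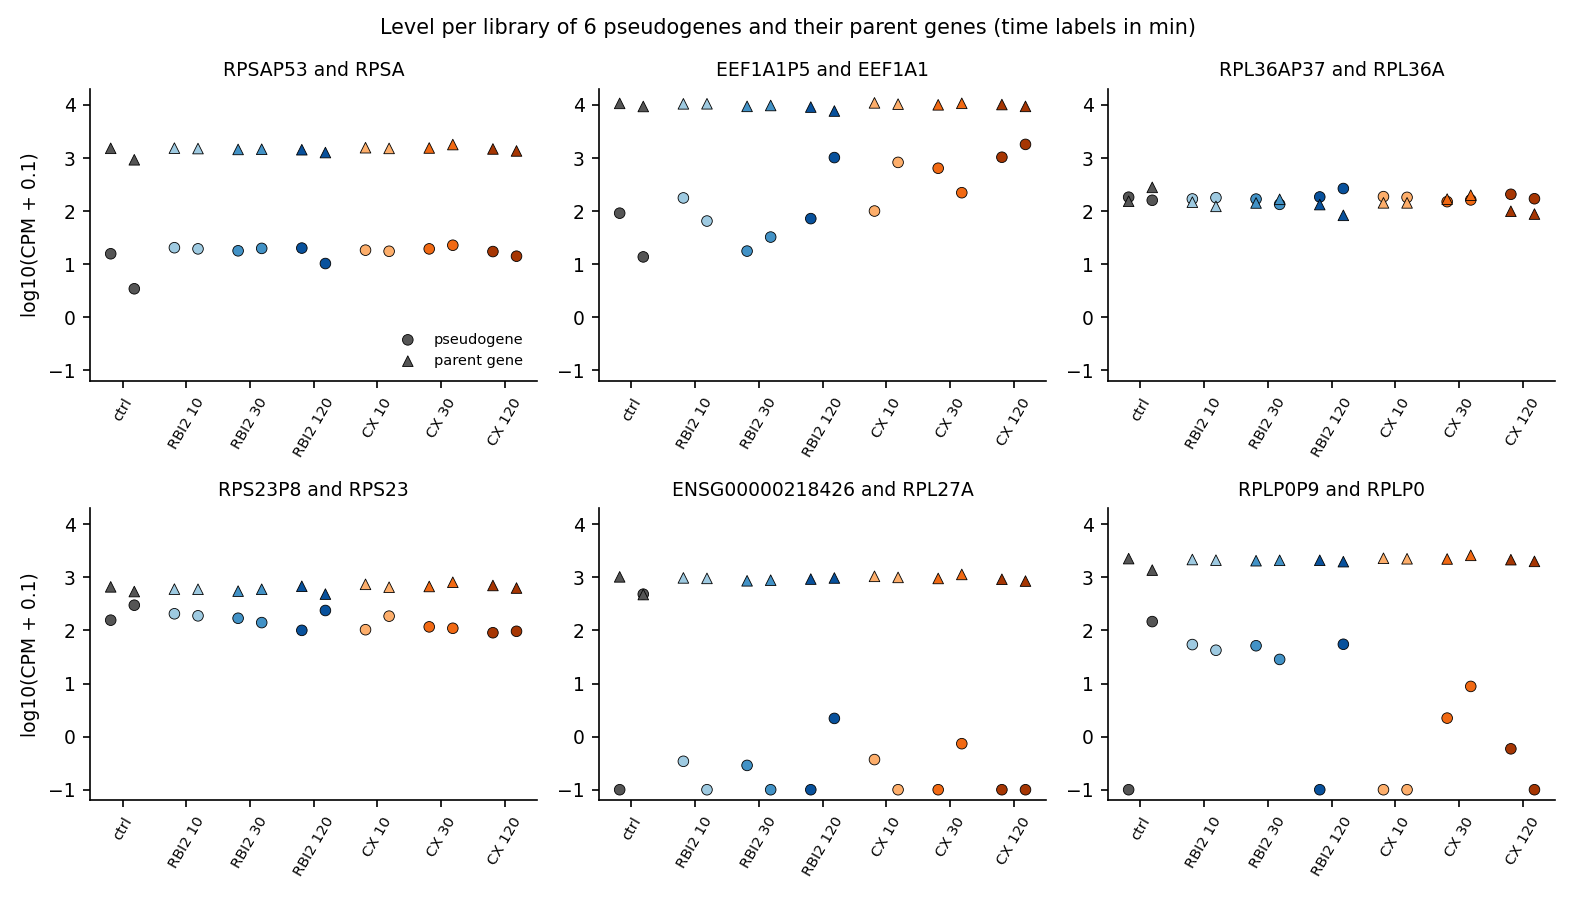
Level per library of 6 processed pseudogenes (circles) and their parents (triangles) as log10(CPM + 0.1), by group with 2 libraries each; a value of -1 is 0 reads. RPSAP53 moves with RPSA, EEF1A1P5 spans 13.7 to 1807 CPM under a nearly flat EEF1A1, and ENSG00000218426 reaches 481 CPM in 1 control library.

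Of the genes typed as transcribed processed pseudogenes, for which the annotation records evidence of RNA, the 5 highest by CPM were ENSG00000237550, ENSG00000196656, HMGB1P5, RPL12P38 and ZNF702P. ENSG00000237550 matched RPL9 at 99.8% and stood at 676 and 360 CPM in the control and at 433 to 701 CPM in the treated libraries, at a mean of 1628 TPM against 1890 TPM for RPL9. ENSG00000196656 matched RPS26 at 100% and stood at 99.9 and 250 CPM in the control and 85.3 to 111 CPM elsewhere. HMGB1P5, of the chromatin protein gene HMGB1, was the steadiest of these, at 76.5 to 105 CPM with a coefficient of variation of 9.82%. RPL12P38 stood at 45.9 and 96.0 CPM in the control and 36.9 to 59.6 CPM elsewhere. Only 26.9% of its sequence aligned to RPL12, and its best coding match was HMGN2. ZNF702P, a zinc finger copy with 82.5% private words, stood at 36.2 to 61.0 CPM.

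Against the control, few copies were called in RBI2 before 120 min. At 10 min 0 of 270 were called with edgeR at an adjusted p under 0.05 and a change of at least 2-fold, beside 0.0778% of all 15426 genes tested, with 50 copies at an unadjusted p under 0.05 (18.5%, against 12.9% of all genes). DESeq2 called 5 copies there, among 37 genes in all. At 30 min 1 copy was called (0.37%, against 0.0389% of all genes), which was higher (background 0.0259%). At an unadjusted p under 0.05 stood 50 copies (18.5%) against 25.8% of all genes. DESeq2 called 4 copies at 30 min, 0 of them higher, among 28 genes in all. At 120 min 14 were called (5.19%, against 1.82%), of which 10 were higher (background 1.42%) and 4 lower (background 0.395%). Among the 10, ENSG00000230715, ENSG00000243302 and ENSG00000243679 lie within exons of the same long non-coding RNA, so they are not independent calls. SEPTIN14P6 resembles that RNA. Without the 2-fold limit the order turned round, with 17 of 270 copies against 2772 of 15426 genes at an edgeR adjusted p under 0.05. At an unadjusted p under 0.05 in edgeR stood 44 copies (16.3%) against 35.9% of all genes. DESeq2 called 10 copies at 120 min, 5 of them higher, among 167 genes in all. With the replicate number as a block edgeR called 13 copies, 7 of them higher, among 241 genes. In CX-5461 at 10 min 5 copies were called (1.85%, against 1.64%), 2 higher (background 0.752%) and 3 lower (background 0.888%), with 43 copies (15.9%) against 22.5% of all genes at an unadjusted p under 0.05. DESeq2 called more copies than edgeR in that comparison, as given in the last section. In CX-5461 0 copies were called at 30 min (background 0%) and 0 at 120 min (background 0.0454%), with 41 copies (15.2%, against 22.9% of all genes) and 44 copies (16.3%, against 12.4%) at an unadjusted p under 0.05. DESeq2 called 4 and 3 copies there, among 16 and 10 genes in all. The median log2 fold change of the copies was 0.0020, -0.17 and -0.0014 in RBI2 at 10, 30 and 120 min, against 0.0051, -0.0075 and 0.012 for all genes. In CX-5461 it was -0.17, -0.21 and -0.042, against -0.036, -0.046 and 0.055 for all genes. At an unadjusted p under 0.05 in edgeR, 5.19% of the copies were higher and 13.3% lower in RBI2 at 30 min, against 12.6% and 13.2% of all genes. The same shares were 8.52% and 7.78% in RBI2 at 120 min, against 16.7% and 19.2%, and 3.33% and 12.6% in CX-5461 at 10 min, against 9.61% and 12.9%.

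These counts turned on single libraries, above all in the control. Without control replicate 1, when control replicate 2 stands alone and is assumed to vary like the other groups, 347 copies passed the filter. Of these, 69, 74 and 68 were called for RBI2 at 10, 30 and 120 min, among 724, 1071 and 1335 genes in all, and 78, 76 and 62 for CX-5461, among 1354, 1143 and 611 genes. Without control replicate 2, when 330 copies passed, the counts were 0, 0 and 7 for RBI2, among 12, 2 and 164 genes, and 2, 0 and 1 for CX-5461, among 154, 0 and 7 genes. Most of the 14 calls of RBI2 at 120 min were lost without its replicate 1 or 2, and so were most of the 280 calls among all genes. Most of the 5 calls of CX-5461 at 10 min were also lost without its replicate 1 or 2.

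ENSG00000268903 differed from the control in the same direction in all treated libraries. It is 755 bases at chr1:135141-135895 on the minus strand, with 7.45% private words, no coding match and a 99.5% match over 755 bases to the long non-coding RNA ENSG00000291215. It stood at 1.68 and 1.76 CPM in the control, 3.58 and 3.09 CPM in RBI2 at 10 min, 4.12 and 4.62 CPM at 30 min, and 4.48 and 4.204 CPM at 120 min. In CX-5461 it stood at 3.45 and 4.56 CPM, 5.19 and 4.71 CPM, and 3.87 and 3.48 CPM. All 12 treated libraries lay above both controls. Its log2 fold change was 1.34 (SE 0.193, edgeR adjusted p = 0.0419) for RBI2 at 30 min, 1.34 (SE 0.195, edgeR adjusted p = 0.00595) for RBI2 at 120 min and 1.22 (SE 0.194, edgeR adjusted p = 0.00567) for CX-5461 at 10 min, and these comparisons share the control libraries. The call at 30 min was lost with the replicate number as a block (edgeR adjusted p = 0.0885) and without any single library other than control replicate 1 (edgeR adjusted p 0.0556 to 0.303), at log2 fold changes of 1.26 to 1.44. The call of RBI2 at 120 min was lost without its replicate 1 (log2 fold change 1.31, edgeR adjusted p = 0.0528). In the other 3 comparisons with the control the log2 fold change was 0.96 to 1.52 and the edgeR adjusted p 0.115 to 0.135. For RBI2 at 30 min DESeq2 did not call this copy. RBI2 and CX-5461 differed by -0.26, -0.18 and 0.24 at 10, 30 and 120 min (SE 0.177, 0.172 and 0.174), and none of these passed the test.

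Several copies that rose with RBI2 at 120 min lie in or resemble non-coding RNA genes. ENSG00000230715, ENSG00000243302 and ENSG00000243679 lie within exons of the long non-coding RNA ENSG00000242588 on the plus strand of chromosome 7 (chr7:128531707-128663479), have no private word and no coding match, so reads of the copies and of that RNA cannot be told apart by sequence. ENSG00000243302 stood at 3.48 and 6.31 CPM in the control, 8.79 and 10.9 CPM in RBI2 at 120 min and 3.71 and 2.96 CPM in CX-5461 at 120 min. Its log2 fold change was 1.02 (SE 0.274, edgeR adjusted p = 0.0314) against the control and 1.55 (SE 0.275, edgeR adjusted p = 0.00959) against CX-5461. ENSG00000242588 itself stood at 0.497 and 1.92 CPM in the control, 6.43 and 7.18 CPM in RBI2 and 1.304 and 2.38 CPM in CX-5461 at the same label. SEPTIN14P6, at chr6:131910-145083, matched the same RNA at 97.3% over 2802 bases and stood at 1.55 and 0.879 CPM in the control, 6.25 and 3.77 CPM in RBI2 and 1.47 and 1.97 CPM in CX-5461. It rose by 2.02 on the log2 scale against the control (SE 0.408, edgeR adjusted p = 0.0141), and without RBI2 at 120 min replicate 1 the log2 fold change was 1.62 (edgeR adjusted p = 0.104). In RBI2 it stood at 2.25 and 4.63 CPM at 10 min and 4.82 and 3.96 CPM at 30 min, with log2 fold changes of 1.47 and 1.82 that did not pass the test (edgeR adjusted p = 0.223 and 0.106).

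The other copies that rose with RBI2 at 120 min were low. SEC14L1P1 stood at 2.36 and 2.46 CPM against 1.12 and 1.28 CPM in the control, and its parent SEC14L1, a lipid-transfer protein gene, at 283 and 276 against 175 and 179 CPM. This copy shares an exon with ALKBH3. ZNF969P, a zinc finger copy, stood at 1.36 and 1.45 CPM against 0.435 and 0.160 CPM, and the coding gene most like it, ENSG00000269825, at 35.2 and 30.2 against 7.15 and 13.02 CPM, a log2 fold change of 1.71 (SE 0.392, edgeR adjusted p = 0.02). RPS10P7 and CTDNEP1P1 also rose, by 1.54 and 1.09 on the log2 scale (edgeR adjusted p = 0.0333 and 0.0472), beside 0.03 and 0.08 for RPS10 and CTDNEP1. EIF4BP6, of the translation initiation factor gene EIF4B, had 0 reads in both controls and 0.413 and 0.217 CPM in RBI2 at 120 min, at least 3.10-fold higher against a floor of 3 reads over the control group (edgeR adjusted p = 0.0325). That rise rests on 10 reads. EIF4BP6 stood at 1.28 and 0.988 CPM in RBI2 at 10 min and had 0 reads at 30 min. In CX-5461 it had 0 reads at 10 min, 0.866 and 0.891 CPM at 30 min and 0.937 and 0.464 CPM at 120 min. Of its words 25.6% are private.

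Of the copies that fell, MSL3P1 had the highest level outside control replicate 2. It is a copy of MSL3, a subunit of a histone acetyltransferase complex, and lies over an exon of ENSG00000279809 on the same strand. It stood at 12.6 and 22.7 CPM in the control, 4.19 and 4.94 CPM in RBI2 at 10 min, 14.1 and 11.5 CPM at 30 min and 6.73 and 4.42 CPM at 120 min. In CX-5461 it stood at 4.90 and 5.28 CPM, 14.05 and 7.38 CPM, and 12.4 and 7.24 CPM. It fell by 1.64 on the log2 scale in RBI2 at 120 min (SE 0.380, edgeR adjusted p = 0.0205) and by 1.78 in CX-5461 at 10 min (SE 0.378, edgeR adjusted p = 0.0236), while MSL3 had log2 fold changes of -0.28 and 0.01. ENSG00000226338, 78 bases identical to the phospholipase gene PLCG1, had 0 reads in RBI2 at 120 min against 0.559 and 0.799 CPM in the control, at least 6.81-fold lower. ENSG00000269069, of the mRNA decay factor gene PATL1, fell by 1.78 on the log2 scale (edgeR adjusted p = 0.0481). The call for ENSG00000218426 (0 and 2.10 CPM in RBI2 at 120 min, fitted log2 fold change -7.95, edgeR adjusted p = 0.0421) rested on control replicate 2, and without it the fitted value was 7.15 (edgeR adjusted p = 0.320).

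In CX-5461 at 10 min LRRFIP1P1 also fell, to 1.02 and 0.556 CPM from 1.93 and 3.28 CPM, and RAB43P1 had 0 reads against 1.55 and 1.44 CPM, at least 18.3-fold lower. PGAM1P8, of the glycolytic enzyme gene PGAM1, rose to 1.89 and 1.28 CPM from 0.684 and 0.399 CPM. RAB43, the Golgi GTPase gene and parent of RAB43P1, moved the other way, from 5.59 and 9.67 to 18.5 and 33.5 CPM (log2 fold change 1.78, SE 0.447, edgeR adjusted p = 0.0488). Of RAB43P1's words 6.80% are private.

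The compounds were compared with each other at the 3 matched labels. At 10 min 3 copies were called (1.11%, against 1.04% of all genes), of which EIF4BP6 and RAB43P1 (higher in RBI2; background 0.635%) had 0 reads in both CX-5461 libraries, for at least 13.8-fold and 18.3-fold, and PPIAP9 (lower; background 0.402%) stood at 0.607 and 0.124 CPM in RBI2 against 1.99 and 1.501 CPM. At 30 min 0 copies were called (background 0.013%), with 26 at an unadjusted p under 0.05 by edgeR (9.63%, against 7.79% of all genes) and 0 called by DESeq2, among 12 genes in all. At 120 min 9 were called (3.33%, against 1.67%), 7 of them higher in RBI2 (background 1.27%) and 2 lower (background 0.402%). Among the 7, ENSG00000230715 and ENSG00000243302 lie within exons of the same long non-coding RNA and are not independent calls. Without the 2-fold limit the order turned round here too, with 16 copies against 2490 genes at an adjusted p under 0.05 in edgeR, and 38 copies (14.1%) against 31.6% of all genes at an unadjusted p under 0.05. RPL3P4 was at 44.3 and 20.9 CPM in RBI2 and had 0 reads in both CX-5461 libraries, at least 471-fold higher in RBI2 (edgeR adjusted p = 0.0135), while RPL3 was at 1036 and 1016 against 1133 and 1057 CPM (log2 fold change -0.09, SE 0.112). In the remaining groups RPL3P4 ran from 0 to 38.7 CPM, and it has no private word. ENSG00000230715, ENSG00000243302, SEPTIN14P6, ZNF969P, CTDNEP1P1 and RBM22P2, of a spliceosome gene, were the other copies higher in RBI2, and ENSG00000226338 and ENSG00000227120, of the co-receptor gene CDON, were lower. These 9 calls became 0 without either RBI2 library at 120 min or without CX-5461 at 120 min replicate 2, 3 without its replicate 1, and 17 without either control library.

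**Figure D4:**
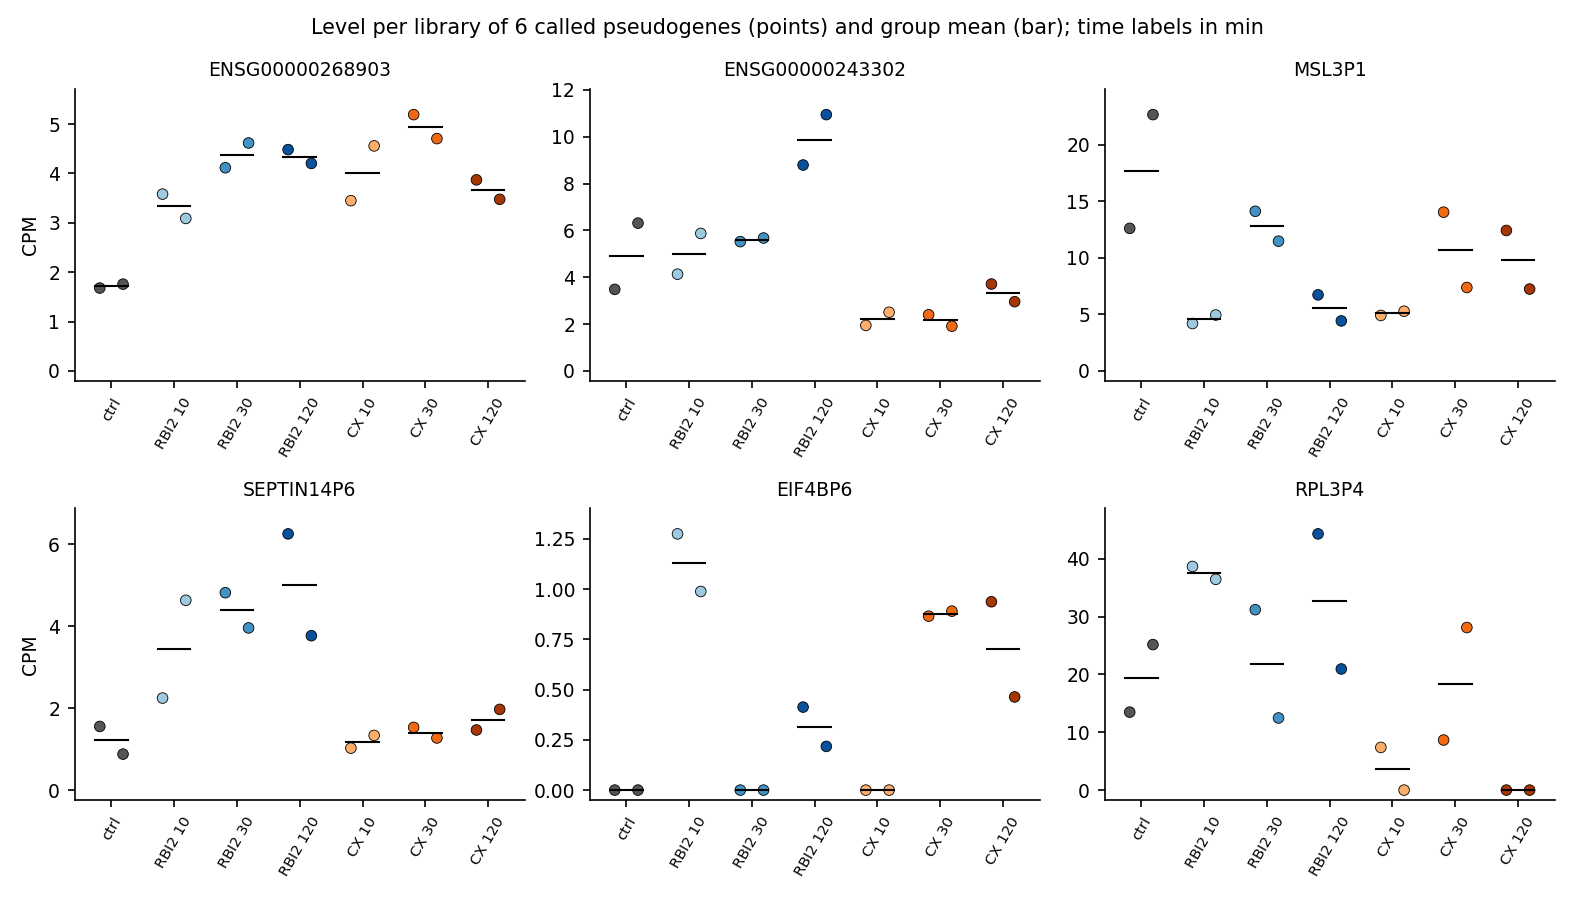
CPM per library of 6 called processed pseudogenes by group; points are libraries and bars the group means (n = 2). ENSG00000268903 is lower in both controls than in all 12 treated libraries, ENSG00000243302 is highest in both RBI2 libraries at 120 min, SEPTIN14P6 is highest there by group mean only, and EIF4BP6 and RPL3P4 have groups with 0 reads.

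Over the 9 comparisons there were 32 calls of 21 copies, and in 24 calls the parent was tested. The parent had the same sign in 13 of the 24, passed an edgeR adjusted p of 0.05 in 6 and was called in 3, which were ZNF969P in both comparisons and RAB43P1 with the opposite sign. Of the 21 copies, 9 had under 25% private words (100 of the 270 tested), 5 had none (37 of the 270), and 11 lay in an exon or intron of a gene on the same strand (46 and 51 of the 270). In 7 calls a group had no reads. Across the 185 pairs the log2 fold changes of copy and parent correlated at -0.15 to 0.14 in the 9 comparisons and had the same sign in 46.5% to 59.5% of pairs. The median size of the log2 fold change was 0.36 to 0.62 for the copies and 0.07 to 0.18 for the parents. Poly(A)-selected RNA of a whole culture was measured, so a change in RNA per cell and a change in the share of cells cannot be told apart.

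**Figure D5:**
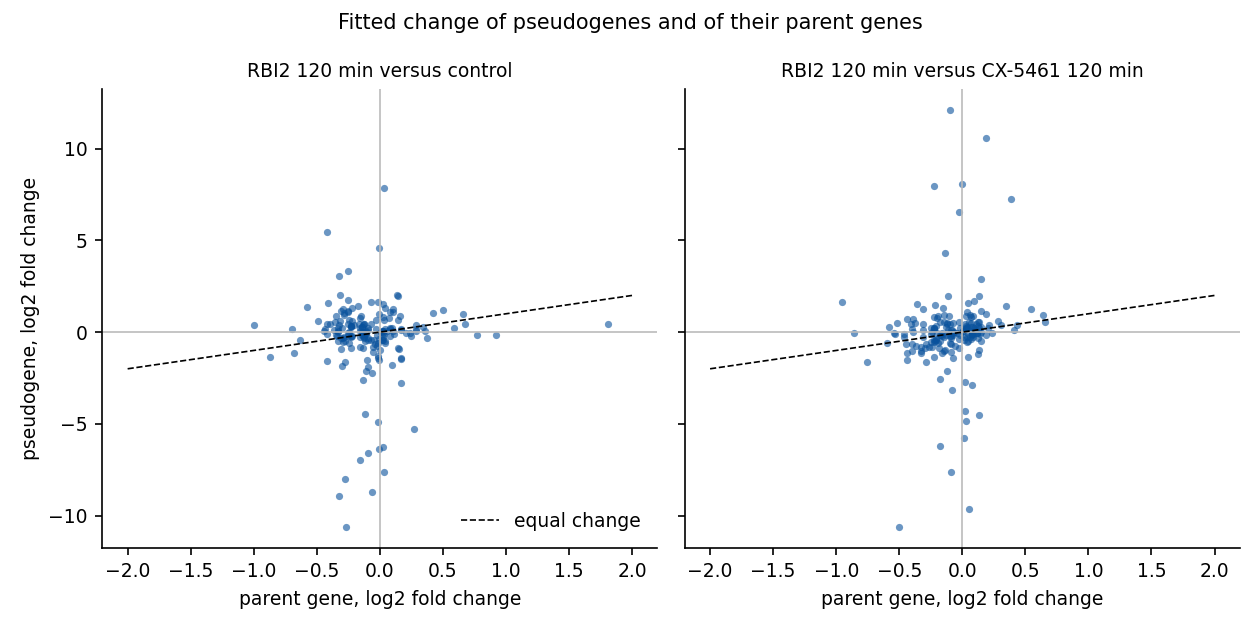
Fitted log2 fold change of 185 processed pseudogenes (vertical axis) against that of their parents (horizontal axis) for RBI2 at 120 min against the control (left) and against CX-5461 at 120 min (right); each point is a pair and the dashed line marks equal change. The correlation across pairs is 0.02 on the left and 0.14 on the right, and the vertical spread exceeds the horizontal.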

How the data were processed

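RNA of MDA-MB-231 cells was measured in 14 libraries, grouped by their sample labels. The files' own names carry other time codes than the labels, so each time holds for the label. Per the study's methods, the authors removed reads of the ribosomal DNA repeat and assigned the rest to GRCh38 transcripts with Salmon (1.3.0 in the submitters' processing notes). The authors deposited expected counts (estimated reads, not whole), TPM and transcript lengths.

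Transcripts were matched to GENCODE release 44 without the version (225662 of 228754), and the 3092 others held 1.03% to 1.13% of reads. Estimated counts were summed per gene and rounded. edgeR 4.0.16 in R 4.3.3 (TMM, filterByExpr minimum count 10, quasi-likelihood F test, 7 groups in 1 model over all 14 libraries) tested 15426 genes in 9 comparisons, with Benjamini-Hochberg adjustment over all of them. Calls needed an adjusted p below 0.05 together with a change of 1 or more, up or down, on the log2 scale. CPM was TMM-scaled, log2 CPM for correlations had a prior count of 2, and TPM served to compare genes. Library totals of 14112299 to 24849354 reads set the precision. Counts were also simulated for RBI2 at 120 min against the control and scored by an adjusted p below 0.05 in edgeR, without the fold limit. Of the changed genes, 76 of 100 changed 2-fold and 92 of 100 changed 4-fold passed, with 9 false passes among 15043 genes. The simulation gave every gene the same spread and drew the changed genes from all those tested. It therefore does not give the recovery for the copies, which were low and often uneven between replicates.

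Parents came from the symbol without its final P and number, or from blastn 2.17.0 against coding transcripts (at least 50% of the copy covered). Named were the 10 highest copies, per comparison up to 3 called copies in each direction, the 5 highest and 5 lowest correlations with the parent at 5 CPM or more, the 5 highest transcribed copies, described retrocopies and their parents, beside 11 lists by parent family. Further called copies are named for completeness, and a few genes and sequences are not reported here. The class, lists and tests were chosen with earlier results of these data known. Alternatives were DESeq2 1.42.0, its size factors, no filter, a replicate block, same-version transcripts, no fold limit, other measures of likeness, and each library left out.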

Additional observations from a re-analysis of the deposited data

Results flagged for a closer look

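The difference between RBI2 and CX-5461 was compared between labels with an interaction term in edgeR. For 120 min minus 10 min it passed an edgeR adjusted p of 0.05 for 3 of the 270 copies, beside 651 of all genes tested (4.22%). EIF4BP6 gave -8.41 on the log2 scale (edgeR adjusted p = 0.0173). It had 1.28 and 0.988 CPM in RBI2 and 0 reads in CX-5461 at 10 min, and 0.413 and 0.217 CPM in RBI2 and 0.937 and 0.464 CPM in CX-5461 at 120 min. ENSG00000226338 gave -6.68 (edgeR adjusted p = 0.0278), with 0 reads in RBI2 at 120 min and 0.290 to 0.789 CPM in the other 3 groups. ZNF702P gave -0.74 (edgeR adjusted p = 0.0490), with 51.4 and 52.3 CPM in RBI2 and 36.2 and 42.8 CPM in CX-5461 at 10 min, and 47.4 and 43.8 CPM against 54.8 and 61.0 CPM at 120 min.

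For 30 min minus 10 min EIF4BP6 gave -14.18 (edgeR adjusted p = 0.00621), beside 122 of all genes (0.791%). It had 0 reads in RBI2 and 0.866 and 0.891 CPM in CX-5461 at 30 min. For 120 min minus 30 min 0 genes passed. Fitted differences of EIF4BP6 and ENSG00000226338 rest on groups without reads and give no size, and these results describe 2 libraries per group.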

How the results depend on the processing

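Of the 32 calls, 19 held under DESeq2 size factors, no filter, the replicate block, same-version transcripts, no fold limit and, where it gave an adjusted p, DESeq2. DESeq2 gave none for 17 calls. With each library also left out in turn, 1 call held throughout, that of ENSG00000268903 in CX-5461 at 10 min (log2 fold change 1.03 to 1.42, adjusted p 0.000732 to 0.0478 with edgeR or DESeq2). The call of ENSG00000218426 in RBI2 at 120 min was 7.15 without control replicate 2 and -15.01 without RBI2 at 120 min replicate 2. Counts are given in the order RBI2 at 10, 30 and 120 min against the control, CX-5461 at 10, 30 and 120 min against the control, and RBI2 against CX-5461 at 10, 30 and 120 min. Without the filter, when 4039 copies were tested, the counts were 61, 76, 73, 68, 70, 54, 36, 34 and 47. The first 3 of these were among 355, 447 and 662 genes called in all. DESeq2 gave 5, 4, 10, 11, 4, 3, 6, 0 and 8, the first 3 among 37, 28 and 167 genes. With each library left out the counts ranged from 0 to 69, 0 to 74, 0 to 68, 1 to 78, 0 to 76, 0 to 62, 0 to 8, 0 to 0 and 0 to 17. With same-version transcripts RBI2 at 120 min gave 9 copies, and without a fold limit RBI2 against CX-5461 at 120 min gave 16. Counts of copies without a count of all genes beside them, here and for the replicate block, are not read as a result about the class.

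The values do not show whether libraries with the same replicate number were made together. Deviations of same-numbered libraries from their group means correlated at -0.18 to 0.18 over 21 pairs of groups, above 0.1 in 3. With the replicate block the counts were 0, 0, 13, 6, 0, 0, 3, 0 and 9, the first 3 among 12, 1 and 241 genes. Of the 32 calls, 24 held with the block and 8 were lost.

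The mean share of reads on the class was 0.408%. It was 0.288% for processed_pseudogene alone, 1.34% as a share of TPM and 0.365% without EEF1A1P5, and 0.401% to 0.414% with each library left out. The median correlation with the parent, 0.04, was -0.12 for copies of at least 5 CPM and 0.00438 to 0.142 with each library left out. The other settings moved neither value beyond its error. The 66 copies with an empty and a read replicate were 76 at a limit of 5 reads and 44 at 20. The limits at 5 and 20 reads and the share without EEF1A1P5 were chosen after seeing the data. The causes of these shifts were not tested. At a median of 1.18 CPM most copies rest on few reads, and 2 libraries per group limit each comparison.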
